A study of Mus musculus with 11 samples.

Results

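The genes described here make, use and break down nitric oxide and cyclic GMP (cGMP), the 2 small messengers that relax the erectile tissue of the penis. In all, 10 genes were followed, chosen by symbol in the deposited files: Nos1, Nos2, Nos3, Gucy1a3, Gucy1b3, Prkg1, Pde5a, Ddah1, Ddah2 and Arg2. All 10 were found among the 23238 symbols of the 11 files, and all 10 were among the 18248 genes that reached a normalized count of 1 in at least 3 libraries and were tested.

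During an erection, nitric oxide from nerve endings and from the endothelium of the penile blood spaces diffuses into smooth muscle. There it activates soluble guanylyl cyclase, which makes cGMP; the cGMP-dependent protein kinase then lowers calcium and the muscle relaxes. Pde5a, the target of sildenafil, ends the signal by cleaving cGMP, and loss of nitric oxide signalling is a known feature of erectile dysfunction in diabetes.

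RNA was sequenced from mouse cells grown out of corpus cavernosum, the spongy erectile body of the penis, which the labels name cavernous endothelial cells. After 5 days of treatment there were 4 libraries of cells in high glucose with Hsp70, a heat shock chaperone (HG+Hsp70), 4 in high glucose alone (HG) and 3 in normal glucose (NG). All groups shared 1 culture medium with 20% fetal bovine serum and 0.5 mg/ml heparin, and each library was made from 1.3 µg of total RNA. No glucose concentration, no dose or kind of Hsp70, and no strain, age or number of animals is in the labels. Whether replicates came from different cultures or animals is not stated either, so a p below measures only the spread between these libraries, which may be technical. The names of the deposited files carry a set number, and the labels do not say what a set is: sets 3, 4 and 5 each hold 1 library of every group, and set 2 holds 1 HG+Hsp70 and 1 HG library. Differences between groups were therefore taken within the set. The model estimates below come from 1 fit of all 11 libraries with the set as a block. Through its HG+Hsp70 and HG pair, set 2 thus also enters the estimates against NG. These can differ from the mean of the differences within sets 3, 4 and 5.

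Values are log2(normalized count + 1), as deposited, unless another scale is named. Normalized counts summed to 24.79 M to 27.81 M per library, which is not the depth itself. The worth of 1 read was taken as the commonest value between 0.5 and 1.5 normalized counts, which was 0.85 to 1.11. In sets 2 and 3 an undetected gene holds 0, whereas in sets 4 and 5 many undetected genes hold a small value above 0. Values under about 1 normalized count therefore cannot be read as different levels between sets. The tests, shares and ranges below use all values as deposited, these low ones included. The libraries of set 3 stood apart from the rest. Their endothelial markers Pecam1 and Cdh5 were at 8.86 to 9.07 and 9.01 to 9.52, against 2.68 to 4.51 and 5.68 to 8.26 in the 8 libraries outside set 3. Tie1, Cldn5 and Robo4, other endothelial markers, were under 1 normalized count in 5, 8 and 5 of those 8 libraries. Fibroblast markers were high everywhere, with Dcn at 17.08 to 17.63 in set 3 and 15.17 to 16.02 outside it. Other markers of the same list did not separate the sets: Eng was at 10.88 to 11.08 in set 3 and 11.01 to 11.49 outside it, Flt1 at 6.44 to 6.55 and 6.35 to 7.73, and Tek at 5.22 to 5.89 and 5.09 to 6.44. Outside set 3 the endothelial label was thus met only in part. In set 3 the higher endothelial markers came with the highest Dcn levels of the 11 libraries. The libraries are therefore called by their group and set.

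The cyclase members are neighbours whose products work as a pair. Gucy1a3 and Gucy1b3 (named Gucy1a1 and Gucy1b1 in newer annotation) encode the alpha and beta subunits of soluble guanylyl cyclase, the nitric oxide receptor, and lie on the minus strand of chromosome 3 (mm10, GENCODE M21) at 82092427 to 82145789 and 82032006 to 82074689, 17737 bases apart. Pde5a lies on the plus strand of the same chromosome at 122728947 to 122859374. The 250 bases before the RefSeq start of these genes are shown because both cyclase subunits sat near the detection limit while the phosphodiesterase did not, and Pde5a had the largest difference between sets among the well-detected members. Sequences are from RefSeq (GRCm38.p6, the mm10 assembly), where 7 of the 10 members had a matching entry; Nos2, Nos3 and Arg2 did not. RefSeq and GENCODE place some starts differently, so the windows of Gucy1a3 and Pde5a lie partly inside the GENCODE spans just given. Capitals mark the CCAAT box (CCAAT, or ATTGG on the other strand) and the GC box (GGGCGG, or CCGCCC on the other strand).
Gucy1a3 start 1, chr3:82145651-82145900, minus strand: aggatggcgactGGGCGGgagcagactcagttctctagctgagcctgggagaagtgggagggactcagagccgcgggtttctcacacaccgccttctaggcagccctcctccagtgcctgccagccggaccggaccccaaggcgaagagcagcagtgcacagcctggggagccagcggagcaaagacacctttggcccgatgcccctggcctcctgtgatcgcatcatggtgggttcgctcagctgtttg
Gucy1b3, chr3:82074712-82074961, minus strand: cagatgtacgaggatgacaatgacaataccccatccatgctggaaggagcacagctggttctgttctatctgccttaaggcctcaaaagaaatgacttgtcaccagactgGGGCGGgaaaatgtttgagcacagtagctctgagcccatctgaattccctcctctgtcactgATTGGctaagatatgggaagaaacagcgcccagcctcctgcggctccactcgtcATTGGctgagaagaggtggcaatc
Pde5a, chr3:122728908-122729157, plus strand: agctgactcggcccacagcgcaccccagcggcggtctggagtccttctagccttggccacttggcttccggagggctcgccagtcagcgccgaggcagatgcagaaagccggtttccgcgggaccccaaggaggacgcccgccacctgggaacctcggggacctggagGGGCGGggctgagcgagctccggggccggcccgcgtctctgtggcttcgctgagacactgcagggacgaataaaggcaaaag
Gucy1b3 has 2 CCAAT boxes and 1 GC box in this window, and start 1 of Gucy1a3 and Pde5a have 1 GC box each and no CCAAT box. The window of a second RefSeq start of Gucy1a3, at 82145074 to 82145323, is not printed and holds neither box. Of 32851 mouse windows of the same length, 33.8% hold a CCAAT box and 32.7% a GC box, on either strand. No window of these 3 genes holds TATAAA, which 12.4% of windows hold. These are letter matches only.

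The enzymes of nitric oxide synthesis were present at very unequal levels. Per kilobase of exon, Nos2, the inducible synthase (chromosome 11, 78920787 to 78960254, plus strand), had a median of 145 normalized counts over the 11 libraries. Nos1, the neuronal synthase (chromosome 5, 117781032 to 117958840, plus strand), had 47.4, and Nos3, the endothelial synthase (chromosome 5, 24364810 to 24384474, plus strand), had 0.705. Of the summed per-kilobase level of the 3 synthases, Nos2 made up 59.9% to 81.6% and Nos1 18.2% to 35.1%. Nos3 made up 5.03% to 7.0% in set 3 and 0.00767% to 0.85% in the other libraries. The synthase that names the endothelial pathway was therefore the least abundant of the 3 in every library.

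Nos2 was at 8.84, 8.61, 9.67 and 9.47 in the HG+Hsp70 libraries of sets 2, 3, 4 and 5, at 9.33, 8.81, 9.29 and 9.87 in the HG libraries of the same sets, and at 9.005, 9.85 and 10.001 in the NG libraries of sets 3, 4 and 5. The groups overlapped, and within each group the set 3 library was the lowest. Within sets 3, 4 and 5, Nos2 in HG+Hsp70 lay below NG each time, with differences of -0.40, -0.18 and -0.53. The limma estimate was -0.42 (SE 0.16, 95% interval -0.78 to -0.06), with an unadjusted p of 0.0278 in limma and an adjusted p of 1.00. HG against NG gave -0.24 (SE 0.16, interval -0.61 to 0.12), with a lower level in 3 of 3 sets. HG+Hsp70 against HG gave -0.18 (SE 0.14, interval -0.50 to 0.15), lower in 3 of 4 sets and higher by 0.38 in set 4. The comparisons share libraries, and none of these differences passed the test.

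Nos1 was at 8.48, 9.17, 9.03 and 9.72 in HG+Hsp70, at 8.68, 9.05, 9.25 and 9.44 in HG, and at 8.83, 9.02 and 9.52 in NG, in the order of sets given above. Its level followed the set: the 2 libraries of set 2 were the lowest of the 11 and set 5 held the highest in every group. The difference of HG+Hsp70 from HG was -0.004 (SE 0.12, interval -0.28 to 0.27), that of HG+Hsp70 from NG was 0.15 (SE 0.14), and that of HG from NG was 0.15 (SE 0.14). For HG+Hsp70 against HG the 95% interval reaches no further than 0.28 log2 units either way, and it reflects only the spread between these libraries. The differences of Nos1 within sets ran from -0.22 to 0.28 in this comparison.

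Nos3 was at 2.54, 4.98, 1.59 and 0.10 in HG+Hsp70, at 1.97, 5.57, 1.79 and 2.94 in HG, and at 5.62, 1.69 and 1.32 in NG. The high library of each group was the one of set 3, so the groups overlapped across their whole range. In normalized counts Nos3 held 30.6 to 48.3 in set 3 and 0.075 to 6.67 outside it, and in 6 of those 8 libraries it was at or under 3. HG+Hsp70 differed from HG by -0.76 (SE 0.53, interval -1.95 to 0.43), and in set 5 alone by -2.84, where the HG+Hsp70 library held 0.075 normalized counts. Without that library the estimate was -0.27, and without the HG library of set 5 it was -0.19. HG+Hsp70 differed from NG by -0.43 (SE 0.59) and HG from NG by 0.33 (SE 0.59), with intervals that reached well to both sides of 0. Outside set 3 a change of Nos3 with glucose or Hsp70 was not detectable at this depth.

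**Figure D1:**
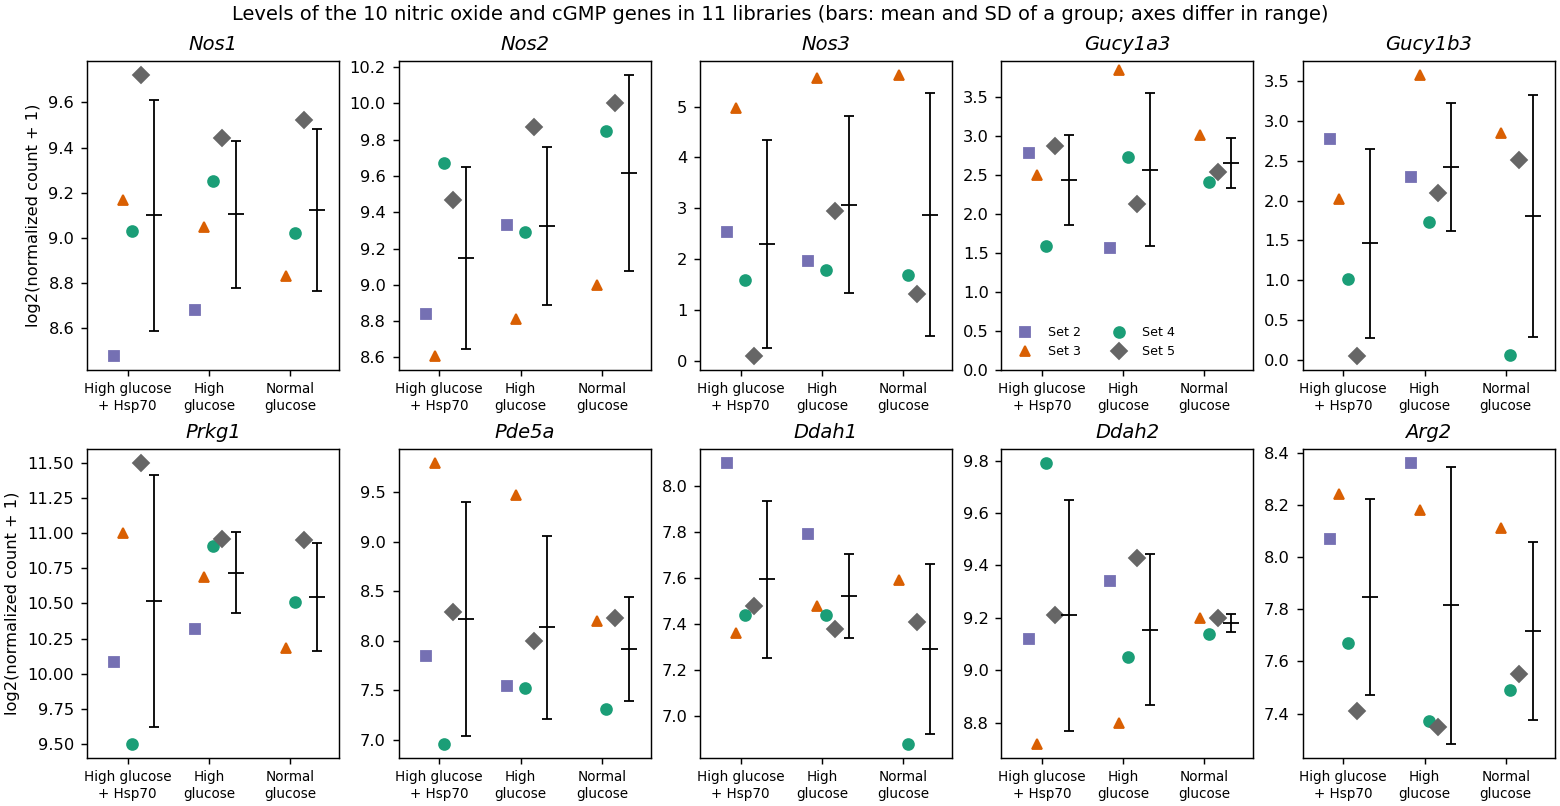
Level of each of the 10 genes in the 11 libraries, as log2(normalized count + 1), by group, with the shape and colour of a point giving its set; bars are the mean and SD of a group, and the axes of the panels differ in range. In the Nos3 panel the set 3 libraries lie at 4.98 to 5.62 in all 3 groups, and every other library lies at 0.10 to 2.94.

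Soluble guanylyl cyclase was barely detected in the form named by the 2 members. Gucy1a3 was at 2.77, 2.49, 1.59 and 2.87 in HG+Hsp70, at 1.56, 3.84, 2.73 and 2.12 in HG, and at 3.01, 2.40 and 2.53 in NG. Gucy1b3 was at 2.78, 2.02, 1.01 and 0.05 in HG+Hsp70, at 2.30, 3.58, 1.73 and 2.10 in HG, and at 2.85, 0.06 and 2.51 in NG. These levels are 1.95 to 13.4 normalized counts of Gucy1a3 and 0.0347 to 10.98 of Gucy1b3, and the HG library of set 3 was the highest for both genes. Gucy1b3 differed by -0.97 between HG+Hsp70 and HG (SE 0.60, interval -2.31 to 0.38), which was lower in 3 of 4 sets and became -0.45 without the HG+Hsp70 library of set 5. Gucy1a3 differed by -0.13 (SE 0.50), with 2 sets up and 2 down. Against NG, the differences of Gucy1a3 were -0.10 for HG+Hsp70 and 0.03 for HG (SE 0.55 each), and those of Gucy1b3 were -0.54 and 0.43 (SE 0.67 each). In 2 libraries Gucy1a3 was at or under 3 normalized counts, and in 4 libraries Gucy1b3 was, so smaller changes were not detectable at this depth.

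The other alpha subunit, Gucy1a2, which also pairs with the product of Gucy1b3, was far more abundant. Per kilobase of exon it had a median of 62.2 normalized counts, with 26.3 to 116 over the 11 libraries, against 0.685 for Gucy1a3 (0.279 to 1.92) and 0.84 for Gucy1b3 (0.00884 to 2.80). In every library the level of Gucy1a2 per kilobase was above that of Gucy1b3, the beta subunit it needs. Of the membrane guanylyl cyclases that natriuretic peptides activate, Npr2, the receptor for C-type natriuretic peptide, had a median of 367 per kilobase. Npr1, the receptor for atrial natriuretic peptide, had 1.78.

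Prkg1, the cGMP-dependent protein kinase that relaxes smooth muscle (chromosome 19, 30564489 to 31765033, minus strand), had the highest median count of the members, 1650. It was at 10.08, 10.999, 9.50 and 11.50 in HG+Hsp70, at 10.32, 10.69, 10.91 and 10.96 in HG, and at 10.18, 10.51 and 10.95 in NG. The HG+Hsp70 libraries held both the highest and the lowest value of the 11, and the lowest, in set 4, was 1.41 below the HG library of its set. The difference of HG+Hsp70 from HG was -0.20 (SE 0.30, interval -0.89 to 0.49), with 2 sets up and 2 down, and became 0.20 without that library. HG+Hsp70 differed from NG by 0.11 (SE 0.34) and HG from NG by 0.31 (SE 0.34, interval -0.46 to 1.08), and HG was higher than NG in 3 of 3 sets. Prkg2, the second cGMP-dependent kinase, known from bone and gut, was at a median of 476 normalized counts per kilobase, against 152 for Prkg1.

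Pde5a was at 7.84, 9.79, 6.96 and 8.29 in HG+Hsp70, at 7.54, 9.47, 7.52 and 7.998 in HG, and at 8.20, 7.31 and 8.23 in NG. Its 2 highest values were the HG+Hsp70 and HG libraries of set 3, while the NG library of that set, at 8.20, lay within the range of the other sets. Within set 3, Pde5a was higher by 1.59 in HG+Hsp70 than in NG and by 1.265 in HG than in NG; in sets 4 and 5 the differences were -0.355 and 0.06 for HG+Hsp70 and 0.20 and -0.23 for HG. The limma estimates were 0.47 for HG+Hsp70 against NG (SE 0.32, interval -0.25 to 1.19) and 0.38 for HG against NG (SE 0.32, interval -0.34 to 1.09), both with an adjusted p of 1.00. With set 3 left out they were -0.07 and -0.09. HG+Hsp70 differed from HG by 0.09 (SE 0.28, interval -0.55 to 0.73).

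Ddah1 and Ddah2 encode the hydrolases that clear asymmetric dimethylarginine, an inhibitor of nitric oxide synthases, and Arg2 encodes the mitochondrial arginase, which competes with the synthases for arginine. Ddah2 (chromosome 17, 35059035 to 35062095, plus strand) was the most abundant member per kilobase in all 11 libraries, with a median of 369. It was at 9.12, 8.72, 9.79 and 9.21 in HG+Hsp70, at 9.34, 8.80, 9.05 and 9.43 in HG, and at 9.20, 9.14 and 9.20 in NG. The 3 NG libraries lay close together, inside the range of the other groups. Ddah1 (chromosome 3, 145758675 to 145894277, plus strand) was at 8.10, 7.36, 7.44 and 7.48 in HG+Hsp70, at 7.79, 7.48, 7.44 and 7.38 in HG, and at 7.59, 6.88 and 7.41 in NG. Its highest 2 values were those of set 2 and its lowest was the NG library of set 4. Arg2 (chromosome 12, 79130777 to 79156301, plus strand) was at 8.07, 8.24, 7.67 and 7.41 in HG+Hsp70, at 8.36, 8.18, 7.37 and 7.35 in HG, and at 8.11, 7.49 and 7.55 in NG.

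The levels of Arg2 fell into sets 2 and 3, at 8.07 to 8.36, and sets 4 and 5, at 7.35 to 7.67, with no overlap and in every group. In normalized counts Arg2 held 161.8 to 326.8. The files write undetected genes in 2 ways along the same split of the sets, and whether Arg2 moves with how the files were made was not tested. Between groups, Ddah1 differed by 0.07, 0.17 and 0.10, Ddah2 by 0.05, 0.01 and -0.04, and Arg2 by 0.03, 0.0035 and -0.03, each in the order HG+Hsp70 against HG, HG+Hsp70 against NG and HG against NG. The standard errors were 0.14 to 0.21, and no bound of the 9 intervals lay beyond 0.59 log2 units, that of Ddah1 in HG+Hsp70 against NG. These 3 genes were measured more precisely than the cyclase subunits, whose standard errors were 0.50 to 0.67.

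**Figure D2:**
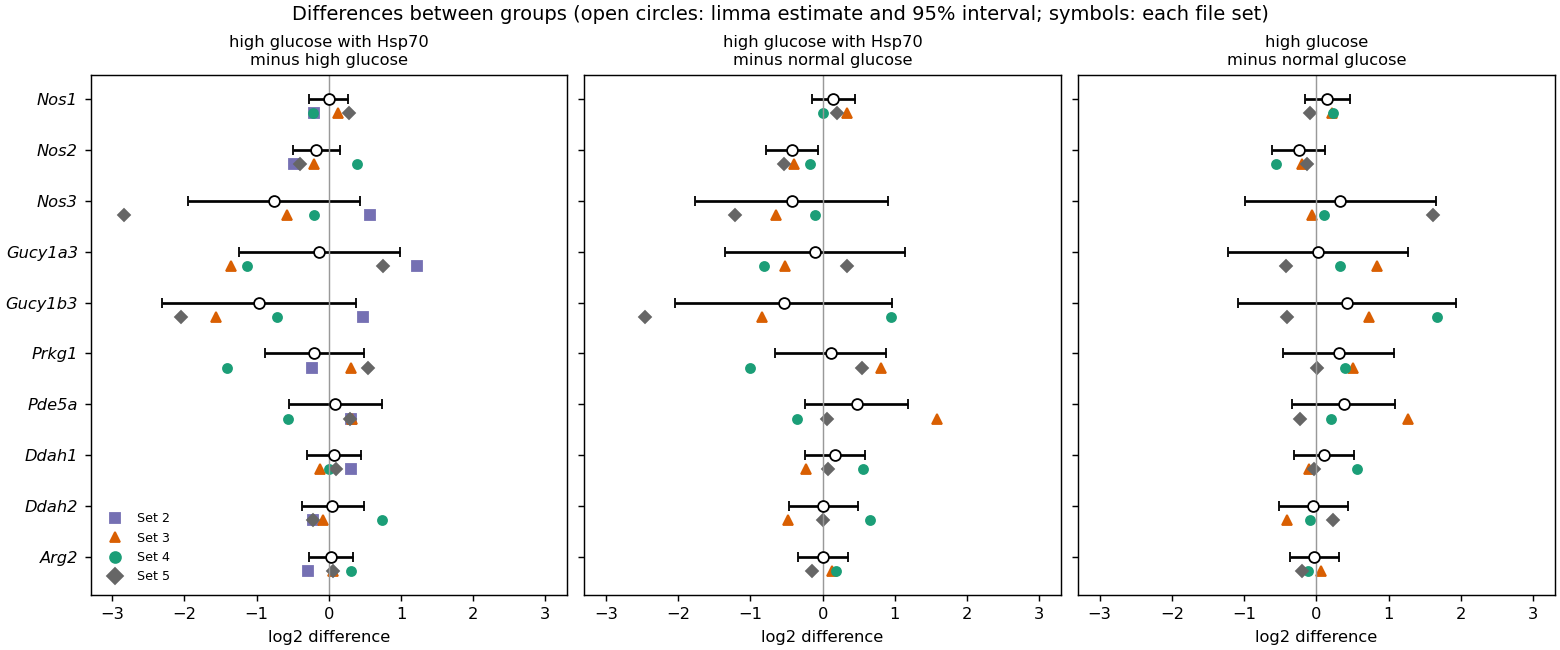
Log2 differences of the 10 genes in the 3 comparisons, with the limma estimate and its 95% interval as open circles and the difference within each set as filled symbols. The interval of Nos2 for HG+Hsp70 minus NG, -0.78 to -0.06, is the only 1 of the 30 that leaves out 0.

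Over all 10 members, none passed an adjusted p of 0.05 in any comparison of groups, where 0% of the 18248 genes did in limma. At an unadjusted p under 0.05, 0 of 10 members passed in HG+Hsp70 against HG (1.67% of all genes), 1 of 10 in HG+Hsp70 against NG (3.22%) and 0 of 10 in HG against NG (3.49%). Of the 10 differences, 4 were above 0 in HG+Hsp70 against HG, 6 in HG+Hsp70 against NG and 7 in HG against NG. Of all genes tested, 50.7%, 50% and 49.5% were. The medians were -0.0672, 0.00836 and 0.128 log2 units, beside medians of 0.00286, 0.000133 and -0.00243 over all genes tested. A single gene could not reach 0.05 by an exact permutation of signs over sets, since the smallest two-sided p is 0.25 with 3 sets and, with 4 sets, still above 0.05.

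Levels of 5 members differed among the sets. In limma's test among the 4 sets, these 5 of 10 members passed, where 11.9% of all genes did. They were Nos3 (adjusted p = 0.00884), Nos1 (0.0148), Nos2 (0.0174), Arg2 (0.0204) and Pde5a (0.0213); the libraries of 1 set count as separate samples in this test. That the levels followed the set was known from earlier results when these genes were chosen. The difference of set 3 from the mean of the other sets was 3.59 for Nos3 (SE 0.51), 1.49 for Pde5a (SE 0.28), -0.72 for Nos2 (SE 0.14), 0.46 for Arg2 (SE 0.13) and -0.05 for Nos1 (SE 0.12). Nos1 differed by sets 2 and 5 instead. The other members gave adjusted p-values of 0.227 (Gucy1b3), 0.238 (Ddah1), 0.259 (Prkg1), 0.445 (Ddah2) and 0.577 (Gucy1a3).

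These calls were not secure against the loss of single libraries. Calls over all 18248 genes moved as well, from 2165 with all libraries to 613 to 5195 with 1 left out. Leaving out each of the 11 libraries in turn, Nos3 passed in 9 of 11 fits, Nos1 in 7, Nos2 and Pde5a in 6 each and Arg2 in 5. Nos3 lost its call without the HG library of set 3 (adjusted p = 0.0681) or without the HG+Hsp70 library of that set (0.0531). Nos1 lost it without HG+Hsp70 of set 2 (0.0799) or set 5 (0.0848), HG of set 3 (0.0621) or NG of set 5 (0.0629). Nos2 lost it without HG+Hsp70 of set 3 (0.0673), HG of set 3 (0.0941) or set 5 (0.0561), or NG of set 3 (0.0535) or set 5 (0.0662). For Pde5a the libraries were HG+Hsp70 of sets 2 (0.0624), 3 (0.0808) and 5 (0.052) and HG of sets 2 (0.0583) and 3 (0.13). For Arg2 they were HG+Hsp70 of sets 3 (0.0672) and 5 (0.0701), HG of sets 3 (0.0938), 4 (0.0509) and 5 (0.0609), and NG of set 5 (0.0505). With no filter on low values Nos3 (0.0596), Nos2 (0.0777) and Pde5a (0.13) did not pass. With all of set 3 left out, none of the 5 passed, and their adjusted p-values ran from 0.146 for Nos1 to 0.81 for Nos3. In that fit only 2 of the 18248 genes passed, so the loss is not particular to these members. In the other direction, Prkg1 passed without the HG+Hsp70 library of set 4 (0.00672).

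The markers of other cell types moved with the sets as well. The summed normalized counts of 14 endothelial markers were 4004 to 4412 in set 3 and 2629 to 3383 outside it, with 0 and 1 to 3 markers under 1 count per library. Eng alone made up 1882 to 2157 of that sum in set 3 and 2066 to 2878 outside it, and the other 13 summed to 2053 to 2254 in set 3 and 439 to 669.6 outside it. Those of 12 macrophage and other leukocyte markers were 4804 to 5780 in set 3 and 548.5 to 883.1 outside it, with 0 and 2 to 4 markers under 1. The 10 fibroblast markers summed to 335900 to 412200 in set 3 and 165300 to 267300 outside, and the 7 pericyte markers to 9610 to 10470 and 6589 to 8438. Dcn, at 17.08 to 17.63, was the largest part of the fibroblast sum in set 3. Lum, Thy1 and Postn were also higher there, whereas Col1a1, Col1a2 and Pdgfra overlapped. Fap went the other way, at 9.88 to 10.58 in set 3 and 10.52 to 11.37 outside it. For 9 smooth muscle markers the sums overlapped, with 4684 to 7189 in set 3 and 3446 to 5815 outside, and for 8 Schwann cell and nerve markers they were 3668 to 7601 and 1032 to 2675. Markers within a list differed: all 3 set 3 libraries lay above the other 8 for 10 of 14 endothelial, 11 of 12 leukocyte, 4 of 10 fibroblast, 4 of 7 pericyte, 6 of 8 Schwann cell and 1 of 9 smooth muscle markers, beside 8.14% of all genes tested. All 3 lay below the other 8 for 1 of 7 pericyte and 1 of 9 smooth muscle markers and for no marker of the other lists, beside 3.85% of all genes tested. These were Cspg4, at 6.70 to 7.37 in set 3 and 8.12 to 8.83 outside it, and Synpo2, at 6.61 to 6.83 and 6.84 to 7.73. The smooth muscle marker that lay above was Des, at 9.66 to 10.02 in set 3 and 4.56 to 5.94 outside it, and Myh11 lay at 7.80 to 8.71 and 5.39 to 7.83. In each list the sums of the 3 treatment groups overlapped. The part of these markers in the set differences of Nos3, Pde5a, Nos2 and Arg2 was not tested, and in such bulk samples fewer cells of a type and less RNA per cell cannot be told apart.

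**Figure D3:**
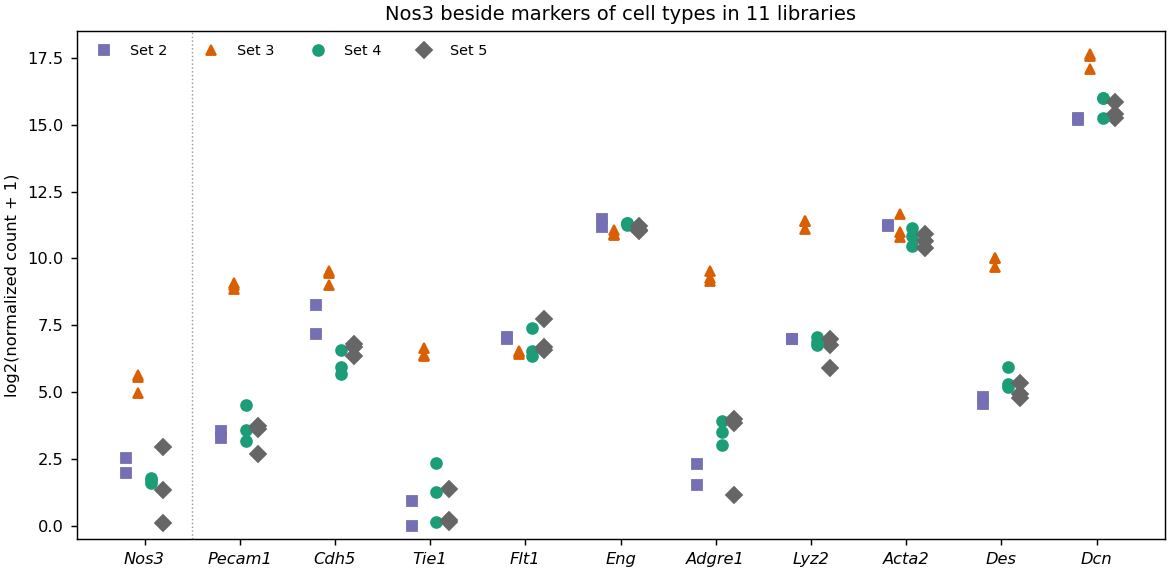
Level of Nos3 (left of the dotted line) beside endothelial (Pecam1, Cdh5, Tie1, Flt1, Eng), macrophage (Adgre1, Lyz2), smooth muscle (Acta2, Des) and fibroblast (Dcn) markers in the 11 libraries, as log2(normalized count + 1), with the shape and colour of a point giving its set. The 3 libraries of set 3 lie above all others for Nos3, Pecam1, Cdh5, Tie1, Adgre1, Lyz2, Des and Dcn, and overlap them for Flt1, Eng and Acta2, so markers of 1 cell type did not all move together.

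Genes that share bases with a member could share its reads, since the strand used in counting is not given in the sources used here. Atg9b, on the other strand of the Nos3 locus, was at 2.17 to 4.47 in set 3 and at 2.28 to 4.72 outside it, so it did not separate the sets as Nos3 did. The noncoding gene 4930447N08Rik, on the other strand of Pde5a, was at 5.19 to 7.34 in set 3 and at 2.33 to 5.62 outside it. Cstf2t in Prkg1 and Vti1b beside Arg2 were at 9.44 to 10.10 and 11.69 to 12.49 over all libraries.

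Ordered by the median per kilobase of exon over the 11 libraries, the members ran Ddah2 (369), Prkg1 (152), Nos2 (145), Arg2 (142), Nos1 (47.4), Ddah1 (43.5), Pde5a (25.9), Gucy1b3 (0.84), Nos3 (0.705) and Gucy1a3 (0.685). Ddah2 was above Prkg1 in all 11 libraries, although their ranges over libraries overlapped. The ranges of neighbours in this order were apart at only 2 places, between Arg2 and Nos1 and between Pde5a and Gucy1b3. Prkg1, Nos2 and Arg2 changed places from library to library, with Prkg1 above Nos2 in 4 of 11 and Nos2 above Arg2 in 6 of 11. So did the last 3, with Gucy1b3 above Nos3 in 3 of 11 and Nos3 above Gucy1a3 in 7 of 11.

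**Figure D4:**
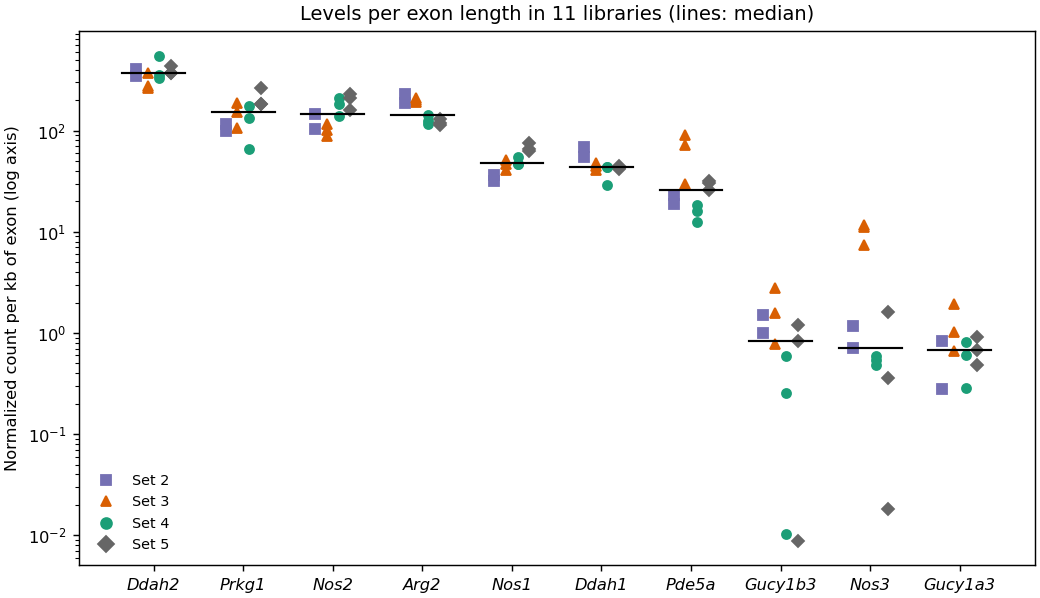
Normalized count per kilobase of exon (log axis) of the 10 members in the 11 libraries, ordered by the median, which the line marks; the shape and colour of a point give its set. Gucy1b3, Nos3 and Gucy1a3 lie below every value of the other 7 members. Nos3 in set 3, at 7.42 to 11.7, comes nearest to them and still lies under every value of Pde5a.

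Around the members, 77 genes of the same pathway were examined in 8 lists, of which 73 were tested; Otc, Hba-a1, Hba-a2 and Gucy2g did not pass the filter. None of the 73 passed an adjusted p of 0.05 in a comparison of groups. At an unadjusted p under 0.05, 1 passed in HG+Hsp70 against HG, 3 in HG+Hsp70 against NG and 4 in HG against NG, which is 1.37%, 4.11% and 5.48% of the list beside the 1.67%, 3.22% and 3.49% of all genes given above. In the test among sets 9 of 73 passed, or 12.3%, close to the 11.9% of all genes.

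The smallest p of these genes belonged to Pde1a, a calcium- and calmodulin-dependent phosphodiesterase that cleaves cGMP. It was at 10.79, 12.26, 10.84 and 11.38 in HG+Hsp70, at 10.83, 12.21, 10.97 and 11.28 in HG, and at 11.82, 10.52 and 10.91 in NG. Within sets 3, 4 and 5 it was higher by 0.44, 0.32 and 0.47 in HG+Hsp70 than in NG, and by 0.39, 0.45 and 0.37 in HG than in NG. The limma estimates were 0.40 (SE 0.11, unadjusted p = 0.00386) and 0.41 (SE 0.11, unadjusted p = 0.00356), both with an adjusted p of 1.00, and they share the NG libraries. Pde1a also differed among sets (adjusted p = 0.000331), with set 3 the highest. Per kilobase it had a median of 334 normalized counts, against 25.9 for Pde5a, and in every library the level of Pde1a was the higher.

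The other phosphodiesterases and the cGMP exporters gave 10 of 11 differences above 0 in HG+Hsp70 against NG (median 0.185), 7 of 11 in HG+Hsp70 against HG and 7 of 11 in HG against NG. Of all genes tested, 50%, 50.7% and 49.5% were above 0. Within sets, only Pde1a and Pde2a were higher in HG+Hsp70 than in NG in 3 of 3. Abcc4, Pde10a, Pde1c and Pde3a were higher in only 1 of 3. Pde2a, which cGMP itself activates, differed by 0.27 (SE 0.14) from HG and 0.23 (SE 0.15) from NG in HG+Hsp70. Pde9a, a cGMP-specific enzyme, differed by 0.81 (SE 0.48) in both comparisons with NG. Pde11a differed by 0.34 (SE 0.33) in HG against NG, and Pde1c and Pde1b by 0.35 (SE 0.43) and -0.13 (SE 0.22) in HG+Hsp70 against HG. None of these differences of Pde2a, Pde9a, Pde11a, Pde1c and Pde1b passed at an unadjusted p of 0.05.

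Supply and use of arginine, the substrate of the synthases, gave 7 of 9 differences below 0 in HG against NG (median -0.271) and 6 of 9 above 0 in HG+Hsp70 against HG. In HG+Hsp70 against NG, 4 of 9 were above 0 (median -0.0936). The shares of all genes above 0 were 49.5%, 50.7% and 50% in these comparisons, in the order given. HG against NG and HG+Hsp70 against HG share the HG libraries, so a deviation of those libraries moves them in opposite directions. The arginine transporter Slc7a3 differed by -1.62 in HG against NG in limma (SE 0.63, unadjusted p = 0.0301), lower in 2 of 3 sets. The largest of these differences was in set 3, at -2.82, where the HG library held 0. In HG+Hsp70 against NG Slc7a3 differed by -1.15 (SE 0.63), lower in 3 of 3 sets. The liver-type arginase Arg1 differed by 1.13 in HG against NG (SE 0.50, unadjusted p = 0.0499), higher in 3 of 3 sets, and by -0.76 in HG+Hsp70 against HG (SE 0.45). Both were near the floor, at medians of 1.49 and 2.37 normalized counts per kilobase. Odc1, ornithine decarboxylase, differed by -0.40 in HG against NG (SE 0.21) and by 0.30 in HG+Hsp70 against HG (SE 0.18). Ass1, which remakes arginine from citrulline, and the transporter Slc7a2 differed by -0.25 (SE 0.12) and -0.23 (SE 0.14) in HG+Hsp70 against NG. The transporter Slc7a1 differed by 0.33 (SE 0.34) in HG+Hsp70 against HG.

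The enzymes of tetrahydrobiopterin, the cofactor of the synthases, and the proteins that bind the synthases showed 0 of 7 and 0 of 12 genes at an unadjusted p under 0.05 in each comparison. Gch1, the first enzyme of cofactor synthesis, differed by -0.28 in HG+Hsp70 against NG (SE 0.16) and by -0.20 in HG against NG (SE 0.16). In HG+Hsp70 against HG, Pts differed by -0.28 (SE 0.15), Qdpr by 0.31 (SE 0.24) and Spr by 0.14 (SE 0.16). Gchfr and Pcbd1, at mean levels of 0.78 and 2.92, differed from NG by 1.16 (SE 0.79) and 0.64 (SE 0.54) in HG+Hsp70 and by 1.08 (SE 0.79) and 0.63 (SE 0.54) in HG. Cav1, the caveolar protein that holds Nos3 inactive, was at 11.21 to 12.26 in HG+Hsp70, at 11.90 to 12.09 in HG and at 11.45 to 11.86 in NG. Its difference between HG and NG was 0.24 (SE 0.21), which did not pass. How many of all genes tested keep HG and NG apart in this way was not counted. Nos1ap, an adaptor of Nos1, differed by 0.38 in HG+Hsp70 (SE 0.33) and 0.35 in HG (SE 0.33) against NG. The chaperone Hsp90aa1, which assists Nos3, differed by 0.13 in HG+Hsp70 against HG (SE 0.14) and by -0.15 in HG against NG (SE 0.15). In HG+Hsp70, Cav1 and Hsp90ab1 differed from HG by -0.17 (SE 0.19) and 0.14 (SE 0.19), and Nostrin and Calm2 from NG by 0.26 (SE 0.33) and 0.07 (SE 0.13).

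Among the proteins that consume nitric oxide, Cygb (cytoglobin, a globin of fibroblast-like cells) was at 8.21, 9.23, 9.97 and 9.27 in HG+Hsp70, at 9.35, 9.34, 10.04 and 9.72 in HG, and at 9.82, 10.06 and 9.59 in NG. It was lower in HG+Hsp70 than in HG in 4 of 4 sets, with a difference of -0.44 in limma (SE 0.18, unadjusted p = 0.0359, adjusted p = 1.00), and differed by -0.45 from NG (SE 0.20). The largest of these differences was in set 2, at -1.14, against -0.45 to -0.07 in sets 3, 4 and 5, and without either library of set 2 the estimate was -0.21. Cyb5r3, the reductase of cytochrome b5 and globins, differed by 0.24 in HG+Hsp70 against HG (SE 0.19) and by -0.19 in HG against NG (SE 0.21). Ngb was near 0, and Mb, myoglobin, differed by 0.32 in HG+Hsp70 (SE 0.40) and 0.62 in HG (SE 0.40) against NG. Mb was one of the genes that differed among sets, at 7.71 to 8.30 in set 3 and 4.49 to 6.18 outside it.

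Of the other guanylyl cyclases and the natriuretic peptide system, 3 of 10 differences were above 0 in HG+Hsp70 against HG, 3 of 10 in HG+Hsp70 against NG and 4 of 10 in HG against NG. The shares over all genes were 50.7%, 50% and 49.5%. Gucy2e, a retinal cyclase at a mean level of 2.06, differed from NG by 1.39 in HG (SE 0.60, unadjusted p = 0.0432) and by 0.87 in HG+Hsp70 (SE 0.60). Npr3, the clearance receptor, differed by 0.37 from HG (SE 0.26) and 0.43 from NG (SE 0.29) in HG+Hsp70. Nppc, the C-type peptide, differed by -0.29 (SE 0.25) and -0.36 (SE 0.28) in the same comparisons, and Nppa, the atrial peptide, by -0.82 against HG (SE 0.70). Gucy1a2 and Npr2 differed by 0.18 (SE 0.34) and -0.06 (SE 0.13) in HG against NG.

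Downstream of the kinase, Itpr1, the calcium release channel, differed by 0.35 in HG+Hsp70 against NG (SE 0.15, unadjusted p = 0.0478) and by 0.21 against HG (SE 0.14). The calcium channel Trpc6, at a mean level of 1.40, differed from NG in limma by -1.57 in HG+Hsp70 (SE 0.70, unadjusted p = 0.0499) and by -1.11 in HG (SE 0.70). The means of its differences from NG within sets were -1.15 in HG+Hsp70 and -1.53 in HG. Rgs2, which the kinase activates to damp contraction, differed by 0.28 in HG+Hsp70 against NG (SE 0.15), and Prkg2 by -0.18 in HG against NG (SE 0.11). The potassium channel subunits Kcnmb1 and Kcnma1 differed by 0.16 (SE 0.18) and 0.13 (SE 0.17) in HG+Hsp70 against HG, and Kcnmb1 by -0.26 in HG against NG (SE 0.20). In the opposing RhoA arm, which keeps the penis flaccid, 7 of 8 differences were below 0 in HG+Hsp70 against HG (median -0.0606), where 50.7% of all genes were above 0. Of these, Rock1, Rock2 and Arhgef12 were higher in HG+Hsp70 in 3 of 4 sets and differed by -1.36, -1.51 and -1.34 in set 4; without the HG+Hsp70 library of set 4 the estimate for Rock1 was 0.26. In this arm 6 of 8 differences were above 0 in each comparison with NG. Ppp1r14a, the inhibitor of myosin phosphatase, differed by -0.58 in HG+Hsp70 against HG (SE 0.36), 0.27 in HG+Hsp70 against NG (SE 0.40) and 0.85 in HG against NG (SE 0.40). Arhgef11 differed by -0.08 (SE 0.15), -0.17 (SE 0.17) and -0.09 (SE 0.17) in the same 3 comparisons. Rock1 differed by -0.16 in HG+Hsp70 against HG (SE 0.35), and Rock2 by 0.22 (SE 0.46) and 0.25 (SE 0.46) against NG in HG+Hsp70 and in HG.

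The 9 pathway genes that differed among sets, a share near that of all genes, are given by name as a description. Higher in set 3 were Pde1a, Mb, Pde3b (10.34 to 11.01, against 9.06 to 10.23 outside it), Rgs2 (11.22 to 11.81, against 9.85 to 10.48) and Kcnma1 (6.64 to 6.81, against 5.43 to 6.81). Lower in set 3 were Mrvi1, the kinase's partner on the calcium store (5.30 to 5.82, against 6.07 to 7.58), Prkg2 (10.71 to 10.83, against 11.13 to 11.89), and Slc7a2 (10.23 to 10.42, against 10.54 to 11.63). Odc1, at 12.22 to 12.67 in set 3 and 12.12 to 13.98 outside it, was highest in the HG+Hsp70 and HG libraries of set 2, at 13.98 and 13.48. Prkg2 and Mrvi1 were thus lower in set 3 than in any other library, while Pde1a, Pde3b, Rgs2 and Mb were higher than in any other.

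The genes whose levels were most like those of a member were taken from 9124 genes above the median level, by Pearson's r over the 11 libraries. They are given as a description, since libraries of 1 set tended to deviate together. Each gene is followed by its r over the 11 libraries and then over the 8 outside set 3. For Nos3 they were Lyz2 (0.96 and 0.859), Fabp4 (0.958 and 0.707) and Mmp13 (0.954 and 0.655), and for Pde5a they were Col12a1 (0.976 and 0.919), Pitpnc1 (0.974 and 0.88) and Pde4d (0.969 and 0.858). In both cases r was lower outside set 3. Nos1 was most like Luc7l2 (0.978 and 0.981), Kdm5d (0.968 and 0.971) and Csf2rb2 (0.966 and 0.973). Nos2 was most like Rufy3 (0.94 and 0.888), Camkk2 (0.916 and 0.899) and Tsc1 (0.913 and 0.857). Prkg1 was most like Nhsl2 (0.976 and 0.982), Fam208a (0.973 and 0.977) and Rfx3 (0.973 and 0.976). For Nos1 and Prkg1 the r was about as high outside set 3. Arg2 was most like Atp5j (0.947 and 0.943), Slc48a1 (0.93 and 0.901) and Itga3 (0.924 and 0.91), Ddah2 most like Gm5643 (0.968 and 0.956), Mesdc2 (0.967 and 0.946) and Thra (0.963 and 0.934), and Ddah1 most like Rab5c (0.902 and 0.909), Vta1 (0.899 and 0.907) and Zfp35 (0.894 and 0.908). The cyclase subunits had weaker neighbours. They were Srsf9 (0.835 and 0.645), Il10rb (0.803 and 0.658) and Dph5 (0.798 and 0.691) for Gucy1a3 and Uckl1 (0.858 and 0.933), Tceal1 (0.826 and 0.829) and Mkx (0.816 and 0.787) for Gucy1b3. With each other the subunits gave r = 0.387 over the 11 libraries and -0.102 over the 8 outside set 3, at counts near the detection limit.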

How the data were processed

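RNA was sequenced in 11 libraries (4 HG+Hsp70, 4 HG, 3 NG), after Trizol extraction; per the labels' protocols the SMARTer kit was stranded. Values as deposited are in log2 units, taken from the values as log2(normalized count + 1): none is negative, and the commonest low value after undoing the log was near 1. That value was sought only between 0.5 and 1.5. Low values were not whole multiples of it in every library, as with Nos3 at 1.495 in NG of set 5, where it was 1.11. TopHat, edgeR and mm10 stand, unversioned, in the submitters' processing notes. Not given in the sources used here are the normalization, annotation, strand setting and handling of multi-mapping reads, and how they bear on the levels was not tested. Of 23282 rows, 44 repeats of a symbol were dropped. Tested were the 18248 genes that reached 1 normalized count in 3 or more libraries. Libraries held 24.79 M to 27.81 M normalized counts, of which ribosomal Rn45s made up 0.638% to 7.0%.

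The test was limma (version 3.58.1, R 4.3.3), with 3 group means and the file set as a block in 1 model of all libraries, trended robust prior, Benjamini-Hochberg adjustment over all genes tested at 0.05. The script was checked on simulated data. Levels per kilobase divide the normalized count by the union of exons in GENCODE M21. The block follows the rule of taking differences within the set. With the group means taken out, libraries of 1 set correlated at 0.594, 0.302 and 0.285 (HG and NG, sets 3 to 5), 0.422, 0.691, 0.0586 and 0.262 (HG+Hsp70 and HG, sets 2 to 5) and 0.458, 0.0219 and 0.372 (HG+Hsp70 and NG). By the number in the titles they correlated at -0.224, -0.357 and 0.137 for HG and NG.

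The members and lists were chosen with earlier results of these data known. Beyond the members, the rule names the 3 genes of each list with the smallest unadjusted p per comparison, and the 3 genes with the highest r to each member. Alternatives were other blocks, sets, filters, pseudocounts, scalings, weights and priors, and each library left out. Python 3.11.15 with matplotlib 3.10.9 drew the figures.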

Additional observations from a re-analysis of the deposited data

How the results depend on the processing

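The 102 differences named above were recomputed under 25 alternatives, 11 of which left out 1 library. None of the 2532 values changed its side of the threshold (the smallest adjusted p was 0.0641), 2382 kept their sign and 150 took the other one. Nos2 in HG+Hsp70 against NG ran from -0.61 to -0.35 and Pde1a from 0.23 to 0.46 in the same comparison, never with the other sign. Both are singled out for their small unadjusted p, and the alternatives reuse the same libraries. Their kept sign is therefore no further support for a difference. The causes of the changes of sign were not tested.

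Counts of genes called between groups stayed at 0 except with library weights, which gave 21 in HG against NG and 1 in HG+Hsp70 against NG. Without the replicate block by set there were 0 calls in each comparison and 136, 178 and 185 genes at an unadjusted p under 0.05 (HG+Hsp70 against HG, HG+Hsp70 against NG, HG against NG). Blocking by the number in the titles, or by set as a random effect (correlation within a set 0.336), also gave 0 calls. Among sets, the 2165 calls became 1387 with sets 3, 4 and 5 only, 2 with set 3 left out, 0 with sets 4 and 5 only (2174 at an unadjusted p under 0.05), 1375 with no filter, 8529 with library weights and 1396 without the trended robust prior. Leaving out 1 library gave 613 to 5195: 613, 926, 1022, 1051, 1210 and 1356 without, in turn, HG of set 3, HG+Hsp70 of set 3, HG+Hsp70 of set 2, NG of set 5, HG+Hsp70 of set 5 and HG of set 2, and 5195 without HG+Hsp70 of set 4. With library weights, Prkg1 (adjusted p = 0.0157), Ddah2 (0.0219) and Gucy1b3 (0.0224) also passed among sets. Nos2 (0.0597) and Pde5a (0.0704) did not pass without the trended robust prior, nor did Nos1 (0.0802) with sets 3, 4 and 5 only.

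The values with the other sign, none of which passed, were as follows. With library weights, Nos1 (0.07), Prkg1 (0.16), Ddah1 (-0.06), Ddah2 (-0.05), Spr (-0.03), Hsp90aa1 (-0.01), Hsp90ab1 (-0.02), Pde1b (0.11), Arhgef11 (0.0026) and Rock1 (0.08) in HG+Hsp70 against HG, and Gucy1a3 (0.03), Ddah2 (-0.09), Arg2 (-0.10) and Calm2 (-0.06) in HG+Hsp70 against NG. With median centring, Nos1 (0.01) in HG+Hsp70 against HG. Without the set block, Nos1 (-0.03), Prkg1 (-0.03) and Mb (-0.01) in HG+Hsp70 against NG, and Nos1 (-0.02), Gucy1a3 (-0.08), Arg2 (0.10) and Prkg2 (0.01) in HG against NG. With quantile normalization, Nos1 (0.00039) and Gucy1a3 (0.01) in HG+Hsp70 against HG, and Gucy1a3 (-0.05) in HG against NG. With the block as a random effect, Gucy1a3 (-0.03) and Arg2 (0.04) in HG against NG. With the title number as block, Nos1 (-0.19), Prkg1 (-0.23) and Ddah2 (-0.02) in HG+Hsp70 against NG, and Nos1 (-0.18), Gucy1a3 (-0.08), Prkg1 (-0.03), Arg2 (0.25) and Odc1 (0.01) in HG against NG. With set 3 left out, Gucy1a3 (0.28) in HG+Hsp70 against HG, and Gucy1a3 (0.0003), Prkg1 (-0.20), Pde5a (-0.07), Arg2 (-0.06) and Rock2 (-0.39) in HG+Hsp70 against NG, and Gucy1a3 (-0.28), Pde5a (-0.09), Ddah2 (0.15), Cyb5r3 (0.02), Ngb (-0.10), Gucy1a2 (-0.11), Npr2 (0.01) and Rock2 (-0.23) in HG against NG. With sets 3, 4 and 5 only, Nos1 (0.06), Ddah1 (-0.01) and Pde1c (-0.02) in HG+Hsp70 against HG. With sets 4 and 5 only, Nos1 (0.03), Pde5a (-0.13), Slc7a1 (-0.20) and Npr3 (-0.22) in HG+Hsp70 against HG, and Prkg1 (-0.23), Pde5a (-0.15) and Rock2 (-0.57) in HG+Hsp70 against NG, and Gucy1a3 (-0.04), Pde5a (-0.01), Ddah2 (0.07), Nos1ap (-0.0035), Ngb (-0.01), Gucy1a2 (-0.14) and Rock2 (-0.05) in HG against NG.

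Where leaving out 1 library changed a sign, the lowest and highest values were, in HG+Hsp70 against HG, Nos1 -0.09 to 0.06, Gucy1a3 -0.58 to 0.22, Prkg1 -0.41 to 0.20, Pde5a -0.14 to 0.34, Ddah1 -0.01 to 0.17, Ddah2 -0.17 to 0.16, Arg2 -0.05 to 0.14, Spr -0.05 to 0.28, Hsp90aa1 -0.01 to 0.22, Cav1 -0.28 to 0.08, Hsp90ab1 -0.09 to 0.25, Nppa -1.34 to 0.06, Pde1c -0.02 to 0.65, Pde1b -0.37 to 0.08, Kcnmb1 -0.01 to 0.33, Arhgef11 -0.18 to 0.06 and Rock1 -0.41 to 0.26. They were, in HG+Hsp70 against NG, Nos3 -0.65 to 0.14, Gucy1a3 -0.37 to 0.24, Gucy1b3 -1.22 to 0.15, Prkg1 -0.13 to 0.58, Pde5a -0.03 to 0.76, Ddah1 -0.04 to 0.33, Ddah2 -0.25 to 0.23, Arg2 -0.09 to 0.08, Pcbd1 -0.01 to 1.12, Calm2 -0.03 to 0.15, Mb -0.23 to 0.84, Ngb -0.65 to 0.36, Ppp1r14a -0.01 to 0.43 and Rock2 -0.33 to 0.81. They were, in HG against NG, Nos3 -0.34 to 0.55, Gucy1a3 -0.38 to 0.29, Gucy1b3 -0.26 to 1.11, Pde5a -0.12 to 0.63, Ddah1 -0.11 to 0.26, Ddah2 -0.19 to 0.17, Arg2 -0.08 to 0.05, Pcbd1 -0.02 to 1.11, Cyb5r3 -0.40 to 0.05, Ngb -0.01 to 1.10, Gucy1a2 -0.20 to 0.45, Npr2 -0.13 to 0.01, Rock2 -0.29 to 0.62 and Arhgef11 -0.28 to 0.03. Depth limits Nos3 outside set 3, both cyclase subunits, Slc7a3, Arg1, Gucy2e and Trpc6, which rest on a few reads in most libraries.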
